A study of Homo sapiens with 4 samples.

Results

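The genes described here build the contractile machinery of the actin cytoskeleton. They are the tropomyosins TPM1, TPM2, TPM3 and TPM4, the myosin light chain MYL9, the non-muscle myosin heavy chains MYH9 and MYH10, smooth muscle alpha-actin (ACTA2), transgelin (TAGLN) and caldesmon (CALD1). They were chosen by name alone, as all probe sets whose single gene symbol in the platform annotation was one of these 10. A probe set is a small group of short oligonucleotides on the array that together read a stretch of 1 gene's transcripts. TPM3 had no such probe set and was not analysed here. The remaining 9 genes, of 19775 genes on the array, were read by 37 probe sets, of 41097 with 1 symbol.

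The cells were human lung adenocarcinoma lines, CL1-0 and CL1-5, the second known as a more invasive subline derived from the first. AK4, a mitochondrial adenylate kinase that passes phosphate groups between nucleotides, was lowered by shRNA in CL1-5 and supplied by a vector in CL1-0. The 4 groups were CL1-5 with AK4 shRNA, CL1-5 with non-silencing shRNA, CL1-0 labelled AK4 vector and CL1-0 with control vector. All cells were stably transduced and had been selected with puromycin, controls included. Whether a culture was a pool of transduced cells or 1 clone is not given in the sources used here. Each group was 1 array of total RNA, which leaves every value without a replicate error or a p-value, with a precision set by the number of arrays. Signals are scaled intensities, and a floor was set at 6.93, which is 2.79 on the log2 scale. "Higher" or "lower" past the threshold means a ratio of at least 2-fold, or at least 1 on the log2 scale.

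AK4 itself was read by 4 probe sets. With AK4 shRNA their signals in CL1-5 gave log2 ratios between -1.25 and -0.88, so AK4 was lower there in each. In CL1-0 the ratios lay between -0.25 and -0.05, none of them above 0, and each direction given for the array labelled AK4 vector rests on its label. The lines also differed in technical measures: the beta-actin 3' to 5' signal ratio, which grows with RNA degradation, was 1.61 and 1.34 in CL1-5 and 6.54 and 6.04 in CL1-0. For GAPDH the same ratio differed less between the lines, with 1.07 and 1.04 in CL1-5 and 1.54 and 1.25 in CL1-0. Deposited medians were 15.3 and 15.6 in CL1-5 and 6.23 and 6.07 in CL1-0. Cell line, RNA quality and scaling therefore cannot be told apart in a ratio between the lines.

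Tropomyosins are coiled-coil dimers that lie along the actin filament and decide which other proteins can bind it, and caldesmon and transgelin bind the same filaments. Myosin II pulls on the filaments with its heavy chains, MYH9 and MYH10 in non-muscle cells, and is switched on when its regulatory light chain, such as MYL9, is phosphorylated by myosin light chain kinase. Many of these genes are known targets of serum response factor, which binds DNA at a motif called the CArG box and is helped by cofactors that sense the pool of unbound actin.

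Promoter windows from 250 bases before to 50 bases after the annotated start were taken from RefSeq (GRCh38.p14) and were found for 7 of the 9 genes, in 14 windows. TAGLN and MYL9 had no entry. The motif searched was the CArG box, which has CC at one end, GG at the other and only A or T between. Its class of sequences is its own reverse complement, so both strands are covered by 1 search. A CArG-like element was allowed 1 C or G between the ends. The windows shown are the 1 window with a full CArG box, at TPM4, one of the genes with the lowest ratios in CL1-0, and that of ACTA2, which held 2 CArG-like elements. The capitals mark these elements. The TPM4 window lies at chr19:16067288-16067587 on the plus strand and that of ACTA2 at chr10:88952724-88953023 on the minus strand.
TPM4: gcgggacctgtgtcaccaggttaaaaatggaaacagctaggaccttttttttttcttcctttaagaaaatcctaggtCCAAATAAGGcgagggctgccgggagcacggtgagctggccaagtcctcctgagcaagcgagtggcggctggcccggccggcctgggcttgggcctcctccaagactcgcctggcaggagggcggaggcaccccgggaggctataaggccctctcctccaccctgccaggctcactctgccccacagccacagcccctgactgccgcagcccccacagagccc
ACTA2: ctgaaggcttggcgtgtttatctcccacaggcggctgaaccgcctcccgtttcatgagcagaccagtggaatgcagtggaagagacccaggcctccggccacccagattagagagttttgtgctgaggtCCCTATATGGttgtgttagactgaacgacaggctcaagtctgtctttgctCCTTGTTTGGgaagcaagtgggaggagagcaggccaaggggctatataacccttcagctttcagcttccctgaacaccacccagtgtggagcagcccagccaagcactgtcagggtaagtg
The TPM4 element begins 173 bases before the start, in 1 of the 3 windows annotated for this gene. The ACTA2 elements begin 121 and 71 bases before the start, in 1 of its 2 windows. One window of CALD1 held a CArG-like element that begins 26 bases before the start. Of all 35116 windows of the table, 454 or 1.29% held a CArG box, and 2854 or 8.13% held a CArG box or a CArG-like element. These matches describe the letters of the windows and were not tied to the signals by any test.

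Within CL1-0, the array labelled AK4 vector differed from the control array most in TPM4 and MYL9, which were lower, and in TPM1, which was higher. Of 8 measured genes, 1 was at least 2-fold higher and 2 were at least 2-fold lower, where 3.22% and 1.16% of all 14681 measured genes lay past these limits. The median log2 ratio of the 8 genes was -0.04, against 0.05 for all genes. Of the 8, 3 had a ratio above 0, where 56.1% of all measured genes did. Over probe sets, 1 of 26 was higher and 4 were lower past 2-fold, where 3.19% and 1.62% of all measured probe sets were. The 4 lower probe sets were 3 of TPM4 and 1 of MYL9, so they stand for 2 genes. The call held for MYL9 alone when a gene's probe sets were averaged, and for TPM4 alone when probe sets with _x_at or _s_at names were dropped. BioB, a bacterial spike-in control, had signals of 307 on the array labelled AK4 vector and 783 on the control array, and its part in these ratios was not tested.

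Within CL1-5, none of these genes differed by 2-fold between the arrays with AK4 shRNA and with non-silencing shRNA. All 9 were measured and their log2 ratios lay between -0.16 and 0.14, with a median of -0.06, against 0.00 for all genes. Of the 9, 4 had a ratio above 0, where 49.7% of all measured genes did. Of all 15321 measured genes, 0.0914% were higher and 0.0131% were lower by 2-fold, so few genes of any kind passed this limit. The 30 measured probe sets gave ratios from -0.67 to 0.26, and 0 of them passed 2-fold, where 0.0621% of all measured probe sets were higher and 0.0875% were lower.

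Between the control arrays, most of the contractile genes were brighter in CL1-5 with non-silencing shRNA than in CL1-0 with control vector, and MYL9 was far dimmer. TPM1, MYH9, ACTA2 and CALD1 were at least 2-fold higher and MYL9 was at least 2-fold lower, which is 4 and 1 of 9 genes. Of all 15970 measured genes, 17.1% were higher and 14.2% were lower past 2-fold. In all, 8 of the 9 had a ratio above 0, where 56.0% of all measured genes did. The median log2 ratio was 0.97, against 0.13 for all genes. Of 31 measured probe sets, 13 were higher and 1 was lower past 2-fold, where 20.4% and 11.6% of all measured probe sets were. The 13 were 5 of CALD1, 4 of TPM1 and 1 each of TPM2, MYH9, MYH10 and ACTA2, so they do not stand for 13 genes. With median scaling 2 genes passed, MYH9 and MYL9, and with averaged probe sets 3, these and TPM1. This comparison shares an array with each of the others, the CL1-0 control with the vector comparison and the CL1-5 non-silencing array with the shRNA comparison, so their ratios are not independent.

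**Figure D1:**
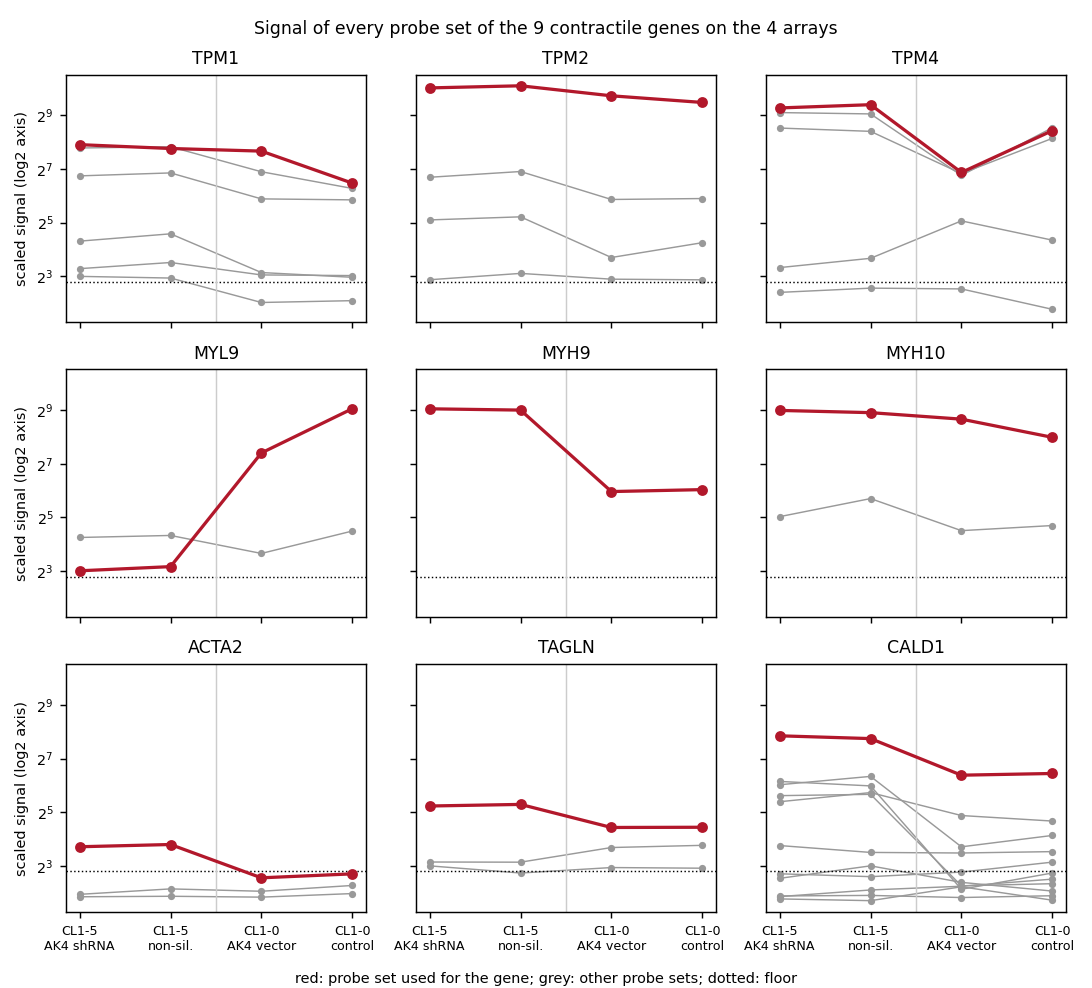
Scaled signal (log2 axis) of each of the 37 probe sets on the 4 arrays, 1 panel per gene, with the CL1-5 arrays left of the grey line and the CL1-0 arrays right of it. Red marks the probe set used for the gene, grey the others, and the dotted line is the floor of 6.93; TPM4 dips on the CL1-0 array labelled AK4 vector in 3 probe sets, and MYL9 stands high on the CL1-0 arrays in 1 of its 2 probe sets.

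TPM4, a non-muscle tropomyosin, was the tropomyosin with the lowest ratio on the CL1-0 array labelled AK4 vector. Its brightest probe set, 212481_s_at, had scaled signals of 622 with AK4 shRNA and 676 with non-silencing shRNA in CL1-5, and of 117 on the array labelled AK4 vector and 345 with control vector in CL1-0. The array labelled AK4 vector was the dimmest of the 4 and both CL1-5 arrays were brighter than either CL1-0 array. The log2 ratio was -1.56 in the vector comparison, rank 26 from the lowest of 14681 genes, and -0.12 in the shRNA comparison. For 209344_at the signals were 551 and 533 in CL1-5, and 108 on the array labelled AK4 vector and 372 with control vector in CL1-0, a log2 ratio of -1.78 in CL1-0. For 1567107_s_at they were 370 and 339 in CL1-5, and 114 and 283 in CL1-0, a log2 ratio of -1.31. These 3 bright probe sets thus had the same dip on the same array. The dim probe set 1559989_at ran the other way, with signals of 10 and 12.7 in CL1-5, and 33.5 and 20.3 in CL1-0, a log2 ratio of 0.72 in CL1-0. The fifth, 235922_at, was below the floor on all 4 arrays. When its probe sets were averaged, the TPM4 ratio in CL1-0 was -0.79 and no longer past 2-fold. It was below 0 under all 7 alternatives. Between the controls the brightest probe set was 0.97 higher in CL1-5 on the log2 scale, just short of the limit. That ratio moved in both directions with the processing, to 1.12 with quantile normalization and 1.17 with cyclic loess, and to 0.48 with median scaling, 0.21 with averaged probe sets and 0.52 without the _s_at ones. The other measured TPM4 probe sets gave 0.52, 0.26 and -0.68 there.

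TPM1, which is expressed in muscle and non-muscle cells in many splice forms, passed 2-fold on the array labelled AK4 vector in its brightest probe set alone, where it was higher. That probe set, 210986_s_at, had signals of 241 with AK4 shRNA and 218 with non-silencing shRNA in CL1-5, and of 204 on the array labelled AK4 vector and 88.9 with control vector in CL1-0. The CL1-0 control array was the dimmest and the other 3 were near each other. The log2 ratio was 1.19 in the vector comparison, with 98.3% of genes lower, and 0.14 in the shRNA comparison. For 210987_x_at the signals were 221 and 228 in CL1-5, and 119 on the array labelled AK4 vector and 77.5 with control vector in CL1-0, a log2 ratio of 0.62 in CL1-0. For 206116_s_at they were 107 and 116 in CL1-5, and 59.1 and 57.7 in CL1-0, a log2 ratio of 0.04. Both of the dimmer probe sets 206117_at and 238688_at lay between 7.78 and 8.80 in CL1-0, close to the floor, with log2 ratios of 0.18 and 0.02. The CL1-0 ratio of TPM1 was therefore 0.34 when its probe sets were averaged, and 0.18 without probe sets whose names end in _x_at or _s_at, which can read several transcripts or genes. At this scaling all 5 ratios were above 0. Probe set 238688_at had the same deposited value, 5.74, on both CL1-0 arrays, so its ratio comes from the scaling alone. The ratio of 206116_s_at, 0.04, lay close to 0 as well, so the shared sign says little. Between the controls TPM1 was 1.29 higher in CL1-5 on the log2 scale, and 4 of its 6 probe sets passed 2-fold, with ratios from 1.01 to 1.62. Scaling by the median in place of the trimmed mean gave 0.80 for TPM1 in that comparison.

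TPM2, known as beta-tropomyosin, passed 2-fold in none of the comparisons with its brightest probe set, 204083_s_at. Its signals were 1044 with AK4 shRNA and 1103 with non-silencing shRNA in CL1-5, and 851 on the array labelled AK4 vector and 717 with control vector in CL1-0. At this scaling both CL1-5 arrays were brighter than both CL1-0 arrays. Between the controls the log2 ratio was 0.62, and it was 0.13 with median scaling, 0.92 with quantile normalization and 1.01 without the _s_at probe set. The log2 ratio was 0.25 in the vector comparison and -0.08 in the shRNA comparison. A second probe set, 212654_at, had signals of 103 and 120 in CL1-5, and 58.2 and 59.7 in CL1-0, a log2 ratio of 1.01 between the controls. Another, 227397_at, had 34.3 and 37.2 in CL1-5, and 13.0 and 19.0 in CL1-0, a log2 ratio of 0.97 between the controls and of -0.55 in the vector comparison. The dimmest, 229911_at, lay between 7.28 and 8.60 on all 4 arrays. All 4 probe sets had a higher signal in CL1-5 than in CL1-0 between the controls, and in the vector comparison they had no common sign.

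MYL9, a regulatory light chain of myosin II best known from smooth muscle and other contractile cells, had the most uneven signal of the 9 genes. Probe set 201058_s_at had signals of 8.05 with AK4 shRNA and 8.96 with non-silencing shRNA in CL1-5, near the floor, and of 170 on the array labelled AK4 vector and 532 with control vector in CL1-0. Both CL1-0 arrays were far brighter than both CL1-5 arrays, and the CL1-0 control was the brightest. In the vector comparison the log2 ratio was -1.65, rank 21 from the lowest of 14681 genes. Between the controls it was -5.89, rank 23 from the lowest of 15970 genes. In CL1-5 the shRNA comparison gave -0.16, between signals so close to the floor that little can be read from it. The second MYL9 probe set, 244149_at, had signals of 19.1 and 20.1 in CL1-5, and 12.6 on the array labelled AK4 vector and 22.5 with control vector in CL1-0. It was lowest on the array labelled AK4 vector, with a log2 ratio of -0.84 in CL1-0, and gave -0.16 between the controls. The difference between the lines thus rests on 1 probe set: it was -3.03 with the mean of both, and -0.16 without the probe set ending in _s_at. The reading in CL1-0 was below 0 under all 7 alternatives, from -1.71 to -0.84. As these are bulk RNA samples, fewer cells with a transcript and less of it per cell cannot be told apart.

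MYH9, the heavy chain of non-muscle myosin IIA, was brighter in CL1-5 and did not pass 2-fold within either line. Its only probe set, 211926_s_at, had signals of 532 with AK4 shRNA and 514 with non-silencing shRNA in CL1-5, and of 62.5 on the array labelled AK4 vector and 65.7 with control vector in CL1-0. The arrays of a line, which differ in construct and are not replicates, lay close together, and the lines did not overlap. Between the controls the log2 ratio was 2.97, with 98.3% of genes lower, and it stayed between 2.48 and 3.04 under 6 alternatives. In the vector comparison it was -0.07 and in the shRNA comparison 0.05. The opposite sign of MYL9 and MYH9 between the lines concerns subunits of the same kind of motor, a light chain and a heavy chain.

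MYH10, the heavy chain of non-muscle myosin IIB, differed less than MYH9 between the controls. In the vector comparison its brightest probe set differed more than that of MYH9. Probe set 212372_at had signals of 510 with AK4 shRNA and 481 with non-silencing shRNA in CL1-5, and of 407 on the array labelled AK4 vector and 254 with control vector in CL1-0. The CL1-0 control was the dimmest of the 4. The log2 ratio was 0.68 in the vector comparison, 0.08 in the shRNA comparison and 0.92 between the controls. The dimmer probe set 213067_at had signals of 32.7 and 52.1 in CL1-5, and 22.7 and 25.9 in CL1-0, with log2 ratios of -0.67 in the shRNA comparison and -0.19 in the vector comparison. Its -0.67 was the lowest ratio of any of the 30 measured probe sets in the shRNA comparison. Both MYH10 probe sets were brighter in CL1-5 between the controls, by 0.92 and 1.01. The brighter one gave 1.04 there with quantile normalization, 1.14 with cyclic loess and 0.43 with median scaling. Its vector comparison gave 0.24 when both probe sets were averaged.

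CALD1, a protein that binds actin, myosin and tropomyosin and restrains the motor, was read by 11 probe sets, of which 3 lay below the floor on all 4 arrays. The brightest, 212077_at, had signals of 231 with AK4 shRNA and 215 with non-silencing shRNA in CL1-5, and of 83.5 on the array labelled AK4 vector and 87.2 with control vector in CL1-0. Both CL1-5 arrays were brighter than both CL1-0 arrays. The log2 ratio was 1.30 between the controls, -0.06 in the vector comparison and 0.10 in the shRNA comparison. Of the other probe sets, 201617_x_at had signals of 71.0 and 63.3 in CL1-5 and lay below the floor on both CL1-0 arrays, so it was at least 9.13-fold higher in CL1-5 between the controls. In the same way 214880_x_at, with 49.2 and 50.9 in CL1-5, was at least 7.34-fold higher. Both are bounds for this floor and this scaling. Probe set 201616_s_at had 65.2 and 80.9 in CL1-5, and 13.1 and 17.6 in CL1-0, a log2 ratio of 2.21 between the controls, and 201615_x_at gave 1.06. In contrast 215198_s_at differed by -0.03, with signals between 11.2 and 13.5 on all 4 arrays. The CALD1 probe sets therefore held 5 past 2-fold and 3 that were not, and no CALD1 probe set passed 2-fold within a line. Scaling by the median gave 0.81 for the brightest one between the controls, and the mean of all probe sets gave 0.95 for the gene.

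TAGLN, transgelin, an actin-binding protein abundant in smooth muscle, was dim on all arrays. Its probe set 226523_at had signals of 37.6 with AK4 shRNA and 39.2 with non-silencing shRNA in CL1-5, and of 21.6 on the array labelled AK4 vector and 21.7 with control vector in CL1-0. In this probe set the lines did not overlap, and within a line the arrays, which are not replicates, lay close together. The log2 ratio was 0.85 between the controls, -0.01 in the vector comparison and -0.06 in the shRNA comparison. Between the controls TAGLN gave 0.36 with median scaling, 0.46 with quantile normalization, 0.44 with cyclic loess and 0.04 with averaged probe sets. A second probe set, 1555724_s_at, ran the other way between the lines, with signals of 8.83 and 8.79 in CL1-5, and 12.8 and 13.6 in CL1-0, a log2 ratio of -0.63. The third, 205547_s_at, lay between 6.64 and 7.99 on all 4 arrays, near the floor.

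ACTA2, the actin of smooth muscle and of myofibroblasts, was near the floor throughout. Probe set 200974_at had signals of 13.1 with AK4 shRNA and 13.9 with non-silencing shRNA in CL1-5, and lay below the floor on both CL1-0 arrays, with 5.87 and 6.50. It was at least 2-fold higher in CL1-5 between the controls, a bound that lies at the limit itself and that came out below 2-fold under 5 alternatives. No ratio could be given in CL1-0, and in the shRNA comparison it was -0.08. Both other ACTA2 probe sets were below the floor on all 4 arrays. An actin probe set can also read other actins, whose sequences are nearly the same, so these values are uncertain.

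**Figure D2:**
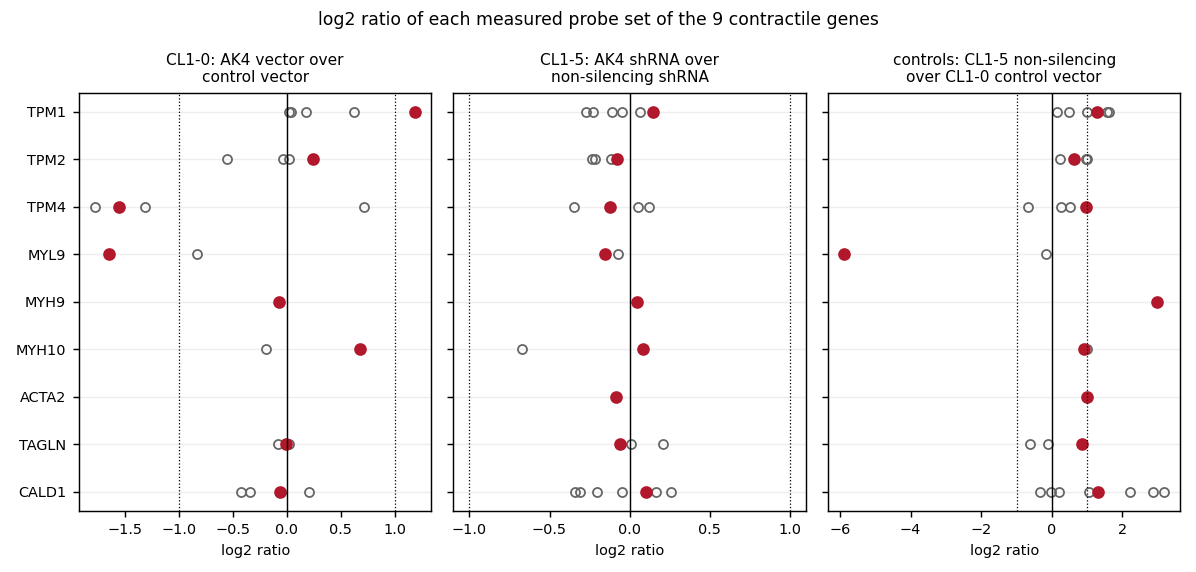
The log2 ratio of every measured probe set of the 9 genes in the 3 comparisons, 1 row per gene; filled red points are the probe sets used for the genes, open circles the others, and dotted lines mark 2-fold. In CL1-0, 3 of 4 TPM4 probe sets lie between -1.78 and -1.31 while the TPM1 probe sets run from 0.02 to 1.19, in CL1-5 every point lies between -0.67 and 0.26, and between the controls MYL9 spans -5.89 to -0.16.

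Probe sets of the same gene differed by about as much as many of these ratios. Pooled over genes, the SD among the log2 ratios of 1 gene's probe sets was 0.61 for 7 of the contractile genes in the vector comparison, against 0.41 for all genes. In the shRNA comparison both were 0.22. Between the controls it was 1.19 for the contractile genes and 0.85 for all genes. This scatter holds differences between transcripts too and does not stand for the spread of repeated cultures. Of the 37 probe sets, 24 were above the floor on all 4 arrays and 6 on none.

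**Figure D3:**
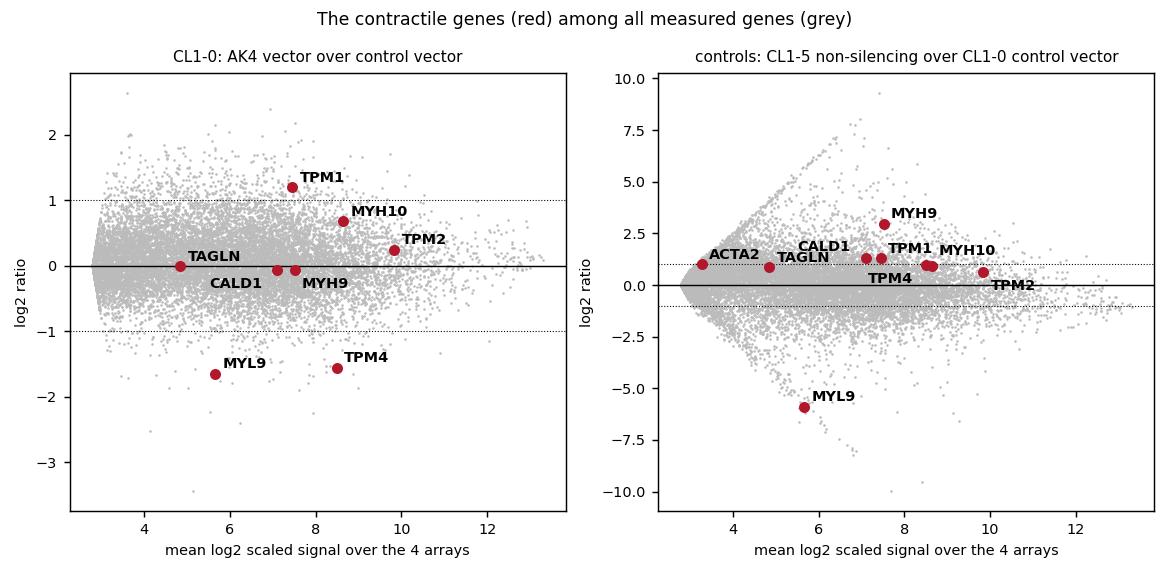
The log2 ratio of every measured gene (grey) against its mean log2 scaled signal over the 4 arrays, with the contractile genes in red, for the vector comparison in CL1-0 (left) and for the controls of both lines (right); dotted lines mark 2-fold. TPM4 at -1.56 and MYL9 at -1.65 lie at the lower edge of the left cloud, and MYH9 at 2.97 and MYL9 at -5.89 lie far apart on the right.

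Patterns over the 4 arrays were compared by the Euclidean distance between log2 levels, each centred on the gene's own mean, over 16252 genes above the floor on at least 1 array. The nearest gene to TPM4 was THBS1, thrombospondin 1, a secreted matrix glycoprotein, at a distance of 0.19. THBS1 had signals of 231 and 221 in CL1-5, and of 40.2 on the array labelled AK4 vector and 134 with control vector in CL1-0. Its log2 ratio in CL1-0 was -1.73, beside -1.56 for TPM4. THBS1 was chosen for its likeness to TPM4 on these same arrays, so the shared dip is no separate result. The nearest gene to MYL9 was VEGFC, a growth factor of lymphatic vessels, at 0.52, with signals of 6.77 and 8.01 in CL1-5, and of 144 and 305 in CL1-0. Among the contractile genes MYL9 stood alone, with the nearest at a distance of 5.76, whereas TAGLN and ACTA2 lay 0.14 apart. ACTA2 and WNT5B were below the floor on both CL1-0 arrays, so their distances are set in part by the floor, and VEGFC was below it with AK4 shRNA. The nearest genes were MND1 for TPM1 (0.06), COQ3 for TPM2 (0.02), ADAMTS16 for MYH9 (0.07), IAH1 for MYH10 (0.03), WNT5B for ACTA2 (0.01), PGAM5 for TAGLN (0.01) and LYST for CALD1 (0.04). With 4 arrays and this many genes a short distance alone says little, and how common such distances are among other genes was not tested.

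Other genes of actin-based contraction were read from lists of related genes. Among actins and relatives of transgelin or calponin, 8 were measured in the vector comparison, and 0 were higher and 1 was lower past 2-fold. Of all genes 3.22% were higher and 1.16% were lower. The median log2 ratio of the list was -0.27, against 0.05 for all genes. The lower one was calponin 2 (CNN2), which binds actin, with signals of 254 and 250 in CL1-5, and of 207 on the array labelled AK4 vector and 430 with control vector in CL1-0. Its log2 ratio was -1.05, and -0.99 with quantile normalization. Between the controls transgelin 2 (TAGLN2) was higher in CL1-5 by 2.50 on the log2 scale, and cardiac actin (ACTC1) by 1.62, or 0.82 with the higher floor. Those were 2 of 8 measured genes of this list, near the 17.1% of all genes that were higher past 2-fold. Beta-actin (ACTB) had log2 ratios of -0.06 in the vector comparison and -0.07 in the shRNA comparison.

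Of the 6 other myosin II subunits, 0 passed 2-fold within either line. Of all genes 3.22% were higher and 1.16% were lower in the vector comparison, and 0.0914% and 0.0131% in the shRNA comparison. Between the controls 0 of the 6 were higher and 3 were lower past 2-fold in CL1-5, where 17.1% and 14.2% of all genes were. The median log2 ratio there was -0.95, against 0.13 for all genes. The 3 lower ones were the light chains MYL12B at -2.20, MYL6 at -1.19 and MYL6B at -1.06, and the light chain MYL12A gave -0.83. Like MYL9, these light chains had ratios below 0 under every scaling, floor and probe set choice tried. The heavy chains MYH11 and MYH14 gave 0.60 and 0.48, on the same side of 0 as MYH9 and MYH10. Their sign is less firm, as MYH11 gave -0.00069 with cyclic loess and MYH14 gave -0.01 with median scaling and -0.20 when probe sets with _x_at or _s_at names were dropped. MYL12B has a near-identical copy, MYL12A, and its signal is uncertain for that reason. MYL6 and MYL6B were short of 2-fold with quantile normalization, at -0.65 and -0.87, and with cyclic loess, at -0.61 and -0.78, and MYL6 also with averaged probe sets, at -0.93, and without the _s_at one, at -0.67.

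Of 26 measured genes of filament assembly and crosslinking, 0 were higher and 3 were lower past 2-fold in the vector comparison, where 3.22% and 1.16% of all genes were. The median log2 ratio was -0.11, against 0.05 for all genes. Zyxin (ZYX), a focal adhesion protein, had signals of 243 and 275 in CL1-5, and of 205 on the array labelled AK4 vector and 549 with control vector in CL1-0, a log2 ratio of -1.42. Palladin (PALLD), which organises actin bundles, gave -1.24 and was lower in 3 of 3 probe sets. Profilin 1 (PFN1), which feeds actin monomers to growing filaments, gave -1.15, with signals of 4511 on the array labelled AK4 vector and 10012 with control vector. Between the controls 10 of 27 genes of this list were higher and 5 were lower past 2-fold in CL1-5, where 17.1% and 14.2% of all genes were, so the lower ones are near the general share. Smoothelin (SMTN) was higher by 3.51, CSRP1 by 2.44 and paxillin (PXN) by 2.38, while synaptopodin 2 (SYNPO2) gave -3.63, with 5 of 6 probe sets below 0.

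Serum response factor (SRF) and its cofactors showed 0 of 6 measured genes past 2-fold in the vector comparison. Of all genes 3.22% were higher and 1.16% were lower. The median log2 ratio of the list was -0.34, and 1 of 6 was above 0, where 56.1% of all genes were. SRF itself gave -0.86 and the cofactor MRTFB 0.96. Between the controls 1 of 6 measured genes of this list was higher and 1 was lower past 2-fold in CL1-5. Of all genes 17.1% and 14.2% were, so both counts are near the general share. The ternary complex factor ELK3 was higher in CL1-5 by 2.11, and ELK4 gave -1.44, with 3 of its 6 probe sets above 0 and 3 below. In the shRNA comparison 0 genes of any of these lists passed 2-fold, where 0.0914% of all genes were higher and 0.0131% were lower. The list medians lay between -0.03 and 0.08.

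**Figure D4:**
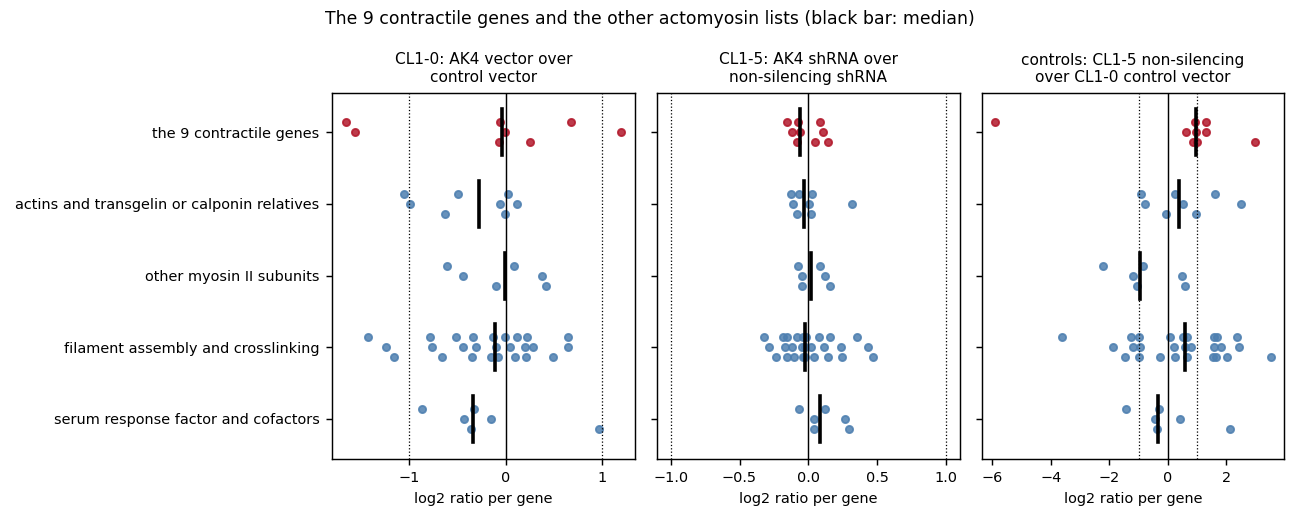
The log2 ratio of each measured gene in the 3 comparisons, with 1 row for the 9 contractile genes (red) and 1 for each list of related genes (blue); black bars are medians and dotted lines mark 2-fold. In CL1-0 the medians run from -0.34 for serum response factor and its cofactors to -0.01 for the other myosin II subunits, in CL1-5 all points stay inside 2-fold, and between the controls the contractile genes have the highest median, 0.97.

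The labels call these cells type II alveolar cells, and they were set against markers. Of all probe sets except controls, 62.4% and 63.4% were above the floor on the CL1-5 arrays, and 57.6% and 56.6% on the CL1-0 arrays. Of 8 type II markers with a probe set, 5 and 5 were above the floor on the CL1-5 arrays, and 6 and 7 on the CL1-0 arrays, with summed signals of 133 and 137 in CL1-5, and 347 and 401 in CL1-0. LAMP3, a lysosomal protein of type II cells, made up much of the sum in CL1-0, with 160 and 210, and the phosphate transporter SLC34A2 was below the floor on all 4 arrays. Between the controls 1 of 7 measured type II markers was higher and 1 was lower past 2-fold in CL1-5, where 17.1% and 14.2% of all genes were. The lower one was LAMP3. The higher one was NAPSA, with 19.2 and 19.6 in CL1-5, and 8.99 and 9.50 in CL1-0. SFTPB, SFTPC, ABCA3 and NKX2-1 were also above the floor on all 4 arrays. Of 6 epithelial markers, 4 and 4 were above the floor in CL1-5, and 5 and 3 in CL1-0, with summed signals of 1783 and 2027 in CL1-5, and 52.5 and 51.5 in CL1-0. Keratin 18 (KRT18) had 1485 and 1681 in CL1-5, and 10.8 and 12.1 in CL1-0. Between the controls 3 of 4 measured epithelial markers were higher and 0 were lower past 2-fold in CL1-5, where 17.1% and 14.2% of all genes were. The 3 were KRT18, KRT8 and KRT7, with log2 ratios of 7.11, 4.64 and 1.02. EPCAM and E-cadherin (CDH1) were above the floor on the array labelled AK4 vector alone, with 9.46 and 9.81.

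Markers of cells in which ACTA2, TAGLN and MYL9 are abundant were checked as well. Their counts above the floor stand beside 62.4% and 63.4% of all probe sets in CL1-5, and 57.6% and 56.6% in CL1-0. Of 6 smooth muscle markers, 4 and 4 were above the floor in CL1-5, and 3 and 3 in CL1-0, with summed signals of 125 and 115 in CL1-5, and 175 and 158 in CL1-0. The intermediate filament protein SYNM made up much of these sums, with 59.4 and 57.8 in CL1-5, and 123 and 113 in CL1-0, and was the only measured smooth muscle marker lower in CL1-5 between the controls. The other 3 measured, MYH11, DES and LMOD1, had ratios above 0 there. Past 2-fold were 0 of the 4, where 17.1% of all genes were higher and 14.2% were lower. MYH11 (12.1 to 19.4) and desmin (DES, 15.0 to 25.1) were above the floor on all 4 arrays, whereas CNN1 and MYOCD were below it on all 4. Among the fibroblast markers COL3A1, PDGFRA and LUM were below the floor on all 4 arrays, whereas COL1A1 and DCN were above it on all 4. COL1A1 had the highest signals of this list, with 56.1 and 78.3 in CL1-5, and 47.8 and 47.4 in CL1-0. COL1A2 and PDGFRB were above the floor in CL1-5 alone. The 7 fibroblast markers summed to 107 and 129 in CL1-5, and to 92.2 and 92.6 in CL1-0, with 4 and 4 above the floor in CL1-5, and 2 and 2 in CL1-0. The 4 endothelial markers summed to 72.4 and 64.9 in CL1-5, and to 23.4 and 25.2 in CL1-0, with 2 and 2 above the floor in CL1-5, 1 and 2 in CL1-0, and CDH5 and KDR below it everywhere. PECAM1, an adhesion protein of endothelial cells, made up most of the CL1-5 sums, with 54.0 and 45.1 in CL1-5, and 6.20 and 7.12 in CL1-0, a log2 ratio of 2.66 between the controls. The 4 leukocyte markers summed to 33.0 and 41.9 in CL1-5, and to 22.5 and 23.0 in CL1-0, with 2 and 3 above the floor in CL1-5, 2 and 1 in CL1-0, and PTPRC below it on all 4 arrays. ITGAM had 17.7 and 23.4 in CL1-5, and 8.21 and 6.72 in CL1-0, a log2 ratio of at least 1.76 between the controls. CD3E lay between 7.01 and 8.26 on all 4 arrays, near the floor. The part of other cells in these values was not tested.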

How the data were processed

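RNA of 4 stably transduced cultures was read on Affymetrix arrays, 1 per group. Groups came from the sample titles in the labels. The authors deposited linear intensities, 1 for each probe set of an array, with no detection calls. MAS5 is named in the submitters' processing notes; which version, for which step and with which scaling target is not given in the sources used here.

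Each array was scaled to a common trimmed mean (2% removed at each end) over all of the 54675 probe sets except 62 controls. Scaled values under their overall 40th percentile were raised to it, then log2 was taken. The platform annotation gave 1 gene symbol for 41097 probe sets, several for 1801 and none for 11777. For 99.9% of the probe sets with 1 symbol the gene identifier was found in RefSeq, and the symbol given there was used. A gene was read from its brightest probe set, by mean log2 level. A comparison took in the genes above the floor on 1 array or both. A ratio with 1 array at the floor is a bound. With 1 array per group no test was made.

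The named genes were the 10 listed, AK4, up to 4 genes per related list and comparison past 2-fold, and the nearest gene in pattern to each member. SRF, MRTFB, ACTB, MYL12A, MYH11, MYH14 and the marker genes were named outside that rule, after their values were seen. One further list of related genes is not reported here. The genes and lists were chosen with earlier results of these data known. Alternatives were median scaling, quantile normalization, cyclic loess, a 60th percentile floor, no floor (log2 of the signal plus 1), the mean of all probe sets, and leaving out probe sets ending in _x_at or _s_at. The code that computes ratios and 2-fold calls was checked on simulated data with known changes. Python 3.11.15, numpy 2.4.6, pandas 2.3.3, R 4.3.3 and limma 3.58.1 were used.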

Additional observations from a re-analysis of the deposited data

How the results depend on the processing

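No paired analysis was possible because each group is 1 array, and for the same reason no replicate could be left out. In the vector comparison, 3 contractile genes passed 2-fold, against 1 when a gene's probe sets were averaged and 1 when it was read without those ending in _x_at or _s_at. Over all genes 644 passed, against 365 with averaged probe sets. Of the passing genes 73.4% were higher, and the other settings gave 63.9% to 76.9%. In the shRNA comparison 16 genes of all passed, against 6 with averaged probe sets. Between the controls 5 contractile genes passed, against 2 with median scaling and 3 with averaged probe sets. There the median of all genes was 0.13, and it moved by -0.43 with median scaling, by -0.19 with quantile normalization and by -0.19 with cyclic loess. The share of higher among the passing genes was 54.6%, against 26.8%, 42.8% and 42.7% under those 3 scalings. ELK4 turned to 0.37 when _x_at and _s_at ones were left out. No contractile gene that passed 2-fold changed sign. Of the contractile genes' values under the alternatives, 51 kept their side of 2-fold and 4 fell inside it in the vector comparison, 60 kept it in the shRNA comparison, and between the controls 47 kept it, 5 moved past it and 9 fell inside it. Signals near the floor, those of ACTA2, of most TAGLN probe sets and of MYL9 in CL1-5, limit what their ratios can show.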
